A study of Mus musculus with 20 samples.

Results

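Neuropeptides are made as inactive precursors that are cut, trimmed and often amidated inside dense-core secretory granules. The 10 genes described here code for enzymes of that pathway, for proteins that restrain or assist the enzymes, and for granins, the acidic proteins that fill the granules. They were chosen by name, as the rows of the deposited table whose Ensembl identifiers belong to Pcsk1, Pcsk2, Cpe, Pam, Scg2, Scg5, Chga, Chgb, Vgf and Pcsk1n in the GRCm38 annotation, and are 10 of the 55471 genes of the table. All 10 were among the 17893 genes with enough counts to be tested.

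RNA was sequenced from hypothalamus slices of wild type C57BL/6 mice, in 20 libraries of 3 groups. The 6 RISP_PF libraries came from mice given a diet with risperidone by pair-feeding, in which food is rationed to the intake of other animals. The 7 RISP_Ad.lib libraries came from mice with free access to the risperidone diet, and the 7 CON_Ad.lib libraries from mice with free access to control diet. The risperidone diet was given for 4 weeks, and the labels state that body weight did not differ from mice on control diet, without making plain whether this covers both feeding conditions. No pair-fed group on control diet was analysed here, so that in RISP_PF against CON_Ad.lib the drug and the feeding cannot be told apart. The drug was in the food, and the amounts eaten are not given here. In RISP_PF against RISP_Ad.lib the feeding and the drug intake therefore cannot be told apart either. The labels give neither age nor sex. Risperidone is an antipsychotic drug that blocks dopamine and serotonin receptors among others, and the title of the series asks about its action on central melanocortin 4 receptors in weight gain. Whether every library is another mouse is not stated, and the p-values therefore describe the spread between libraries, some of which may be technical.

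Total counts lay between 9748005 and 18606543 per library. RISP_Ad.lib library 3 held the lowest total and had 22.1% of its counts in ribosomal RNA genes, against 2.25% to 5.18% in the other libraries. RISP_Ad.lib library 1 stood apart in another way, with a summed level of 8 cortex and hippocampus markers of 1255 CPM (counts scaled to library size with TMM), against 86.5 to 186 CPM in the rest of its group. Its summed oligodendrocyte markers were the lowest of its group at 3005 CPM and its summed markers of neurons in general the highest at 5322 CPM. The 8 markers of hypothalamic neurons were detected in every library, and their sums were 116 to 163 CPM in RISP_PF, 93.9 to 148 CPM in RISP_Ad.lib and 140 to 170 CPM in CON_Ad.lib. Pituitary cells, which also hold many secretory granules, left few marker reads. The 8 pituitary markers summed to 9.34 to 35.8 CPM in RISP_PF, 5.38 to 19.6 CPM in RISP_Ad.lib and 7.26 to 47.6 CPM in CON_Ad.lib. Of these markers Lhb, which codes for a subunit of luteinizing hormone, was at 0 in all 20 libraries. Cga and Tshb had reads in every library, at 29 to 291 and 37 to 96 counts, and Prl reached 402 counts in CON_Ad.lib. Fold changes of members that move by about 1.5 times or more without RISP_Ad.lib libraries 1 and 3 are given with and without libraries 1 and 3 or the one of them concerned.

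In the granule, the prohormone convertases coded by Pcsk1 and Pcsk2 cut precursors after pairs of basic residues. Carboxypeptidase E, from Cpe, then removes the basic residues left at the new end, and the enzyme from Pam turns a terminal glycine into an amide. Several genes of this pathway carry a cyclic AMP response element near their start, a site bound by CREB family factors, which act downstream of neuronal activity. The genes were chosen by name, but genes of this pathway are known for that element. The sequences and shares below are therefore a description only. Windows from 250 bases before to 50 after the annotated start, from RefSeq on GRCm38.p6, were matched for 8 of the 10 genes, all but Vgf and Cpe. Members were counted by gene, with 2 start sites for Pam, whereas the background was counted by window. The palindrome TGACGTCA, searched on both strands, was found in 3 of the 8, against 1.79% of 32851 windows, and its shorter part TGACG in 6 of the 8, against 20.8%, where every TGACGTCA also counts as TGACG. Capitals mark the match, sequences read 5′ to 3′ on the gene's own strand, and positions count back from the RefSeq start.
Pcsk1: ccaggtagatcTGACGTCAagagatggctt
Scg2: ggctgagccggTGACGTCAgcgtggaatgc
Chgb: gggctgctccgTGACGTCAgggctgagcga
Chga: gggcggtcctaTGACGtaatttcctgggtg
The Pcsk1 run is chr13:75089768-75089797 on the plus strand, with the element at −78 to −71, upstream of the GENCODE gene. That of Scg2 is chr1:79440076-79440105 on the minus strand, with the element at −68 to −61. The Chgb run is chr2:132781559-132781588 on the plus strand, with the element at −72 to −65. GENCODE places the starts of Scg2 and Chgb farther upstream than RefSeq, so that both runs lie in annotated exons there. Chga has the shorter match at −44 to −40 in chr12:102554886-102554915 on the plus strand, upstream of the gene. A match is a description of these letters and not a measured binding site.

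The granule cargo genes were among the most abundant messages of the tissue. On a scale per length (FPKM, CPM divided by kilobases of merged exons), Cpe averaged 546 ± 59.7 in RISP_PF, 578 ± 68.7 in RISP_Ad.lib and 530 ± 8.85 in CON_Ad.lib (SD, n = 6, 7 and 7), which ranked 28 of the 17893 tested genes in the control mean. Scg2 followed with 446 ± 29.9 FPKM in RISP_PF, 435 ± 58.6 FPKM in RISP_Ad.lib and 482 ± 33.2 FPKM in CON_Ad.lib, at rank 30. In the control libraries the mean FPKM was 268 for Pcsk1n, 143 for Scg5, 112 for Chga, 104 for Chgb and 93.3 for Vgf. The enzymes that cut and amidate were lower, with control means of 30.4 FPKM for Pcsk2, 25.9 FPKM for Pam and 16.5 FPKM for Pcsk1, which ranked 2831.

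In CON_Ad.lib neighbouring genes had separate ranges except Cpe with Scg2, Chga with Chgb, and Chgb with Vgf. In RISP_PF the ranges of Chgb, at 101 to 107 FPKM, and Vgf, at 70.6 to 86.5 FPKM, did not overlap, whereas in CON_Ad.lib they were 98.5 to 108 FPKM and 83.2 to 103 FPKM. In RISP_Ad.lib Scg5, Chgb, Chga and Vgf overlapped as neighbours, with Chgb spread from 77.5 to 157 FPKM. The 10 genes together took 0.300% of the counts in RISP_Ad.lib library 3 and 0.461% to 0.538% in the other 19 libraries.

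**Figure D1:**
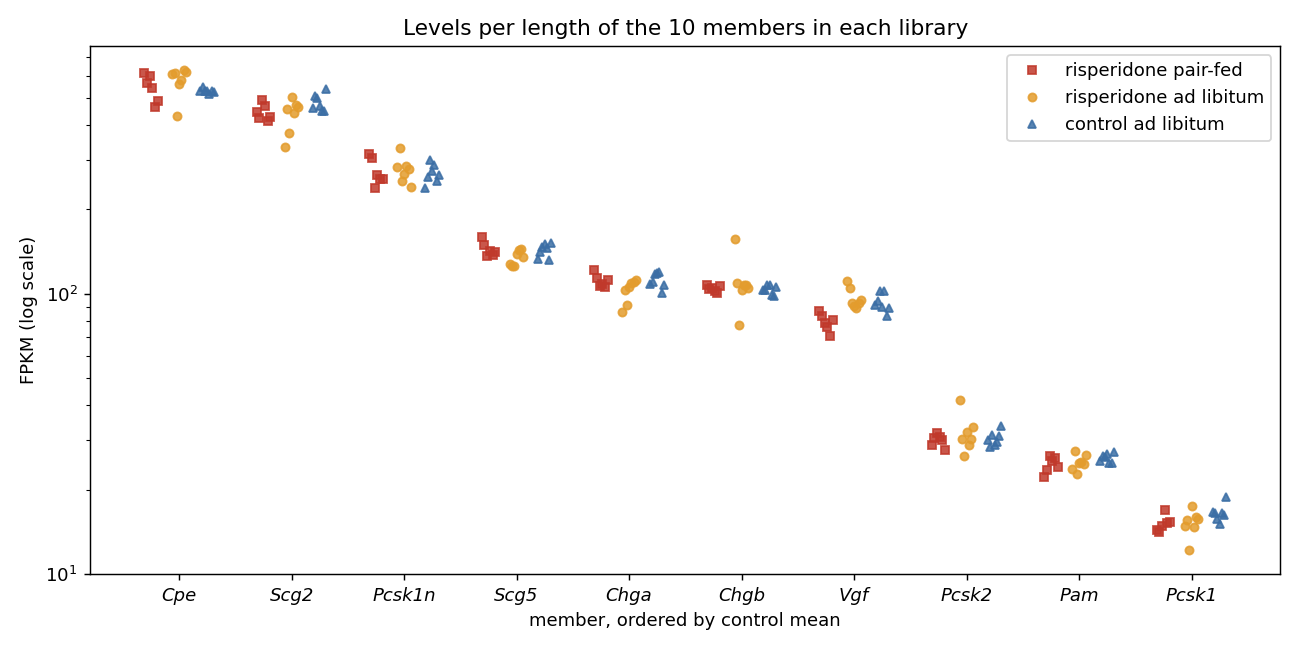
Level per length (FPKM, log scale) of each of the 10 genes in every library, with squares for RISP_PF, circles for RISP_Ad.lib and triangles for CON_Ad.lib, ordered by the control mean. Cpe and Scg2 lead at control means of 530 and 482 FPKM and Pcsk1 is lowest at 16.5 FPKM, with the groups close together beside the distance between genes.

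Vgf was the member that differed between the 2 risperidone groups, RISP_PF and RISP_Ad.lib. It codes for a granule protein that is itself cut into peptides, is induced by neurotrophins and activity, and is known in mice for effects on energy balance. The gene (ENSMUSG00000037428) lies at chr5:137026392-137033351 on the plus strand of GRCm38, with 6 merged exons and no overlapping gene. Its lowest, median and highest levels were 209.9, 236.9 and 257.2 CPM in the RISP_PF libraries, 264.2, 275.8 and 331.6 CPM in the RISP_Ad.lib libraries, and 247.3, 270.8 and 305.6 CPM in the CON_Ad.lib libraries. All 6 RISP_PF libraries lay below all 7 RISP_Ad.lib libraries, and 4 of the 6 lay below every control library.

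On the same drug diet, Vgf averaged 236 ± 16.7 CPM in RISP_PF (SD, n = 6) and 287 ± 24.95 CPM in RISP_Ad.lib (SD, n = 7). It fell by 17.8%, a log2 fold change of −0.28 (SE 0.0616, 95% interval −0.41 to −0.16, adjusted p = 0.0403, edgeR quasi-likelihood test). Of the 10 members 1 was called in RISP_PF against RISP_Ad.lib, where 0.397% of the 17893 genes tested were called, and 0.632% of all genes had groups that did not overlap. The call lay close to the threshold. Over 31 other settings its adjusted p ranged from 0.0022 to 0.138 and was under 0.05 in 19. Leaving out RISP_Ad.lib library 2 or 7, RISP_PF library 3, 4, 5 or 6, or CON_Ad.lib library 1, 2 or 4, each singly, gave adjusted p values between 0.0507 and 0.116. Without RISP_Ad.lib libraries 1 and 3 the fold change was −0.25 with an adjusted p of 0.033.

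Vgf against control had a fold change of −0.23 in RISP_PF (SE 0.0615, 95% interval −0.36 to −0.11, adjusted p = 0.145, edgeR), with 6 of 6 libraries below the control mean of 277 ± 21.3 CPM (SD, n = 7). This did not pass the test, and was called in 5 of 31 other settings, among them the fit without RISP_Ad.lib libraries 1 and 3, where its adjusted p was 0.0205. In RISP_Ad.lib against control the fold change of Vgf was 0.05 (95% interval −0.07 to 0.17, adjusted p = 0.762), and 0.02 without libraries 1 and 3. The comparisons share libraries, so that these values are given side by side and are not independent. In tissue RNA, fewer cells that express a gene and less of its RNA per cell cannot be told apart. Summed markers of hypothalamic neurons were 116 to 163 CPM in RISP_PF and 93.9 to 148 CPM in RISP_Ad.lib. In RISP_PF against RISP_Ad.lib all 8 of their fold changes were above 0, with a median of 0.20. Ependyma markers summed to 38.6 to 53.1 CPM in RISP_PF and 24.4 to 45.4 CPM in RISP_Ad.lib, with all 5 fold changes above 0 and a median of 0.32. RISP_Ad.lib library 1 held the lowest sum of both lists, at 93.9 and 24.4 CPM, and enters these fold changes. The median sums over libraries were 141 CPM in RISP_PF and 133 CPM in RISP_Ad.lib for hypothalamic neurons. For ependyma they were 46.4 and 39.7 CPM. Markers of neurons in general, whose sum was highest in RISP_Ad.lib library 1, had a median of −0.06 in RISP_PF against RISP_Ad.lib. All 5 astrocyte markers were below 0 there, with a median of −0.03. Thalamus markers had a median of −0.18 with 4 of 5 below 0, and all 5 microglia markers were above 0 with a median of 0.06. Those of cortex and hippocampus had a median of −1.29, which goes with RISP_Ad.lib library 1, since the median sums over libraries were 89.7 CPM in RISP_PF and 97.0 CPM in RISP_Ad.lib. None of these markers passed the test over all genes, and their part in the difference of Vgf was not tested.

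The level of Vgf can also be described relative to the other members of the same library, a measure chosen after the values of Vgf had been seen and therefore given without a test. Its log2 level minus the mean of the other 9 members averaged −0.62 ± 0.0820 in RISP_PF (SD, n = 6), −0.34 ± 0.143 in RISP_Ad.lib (SD, n = 7) and −0.42 ± 0.1001 in CON_Ad.lib (SD, n = 7). Without libraries 1 and 3 the mean in RISP_Ad.lib was −0.41.

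**Figure D2:**
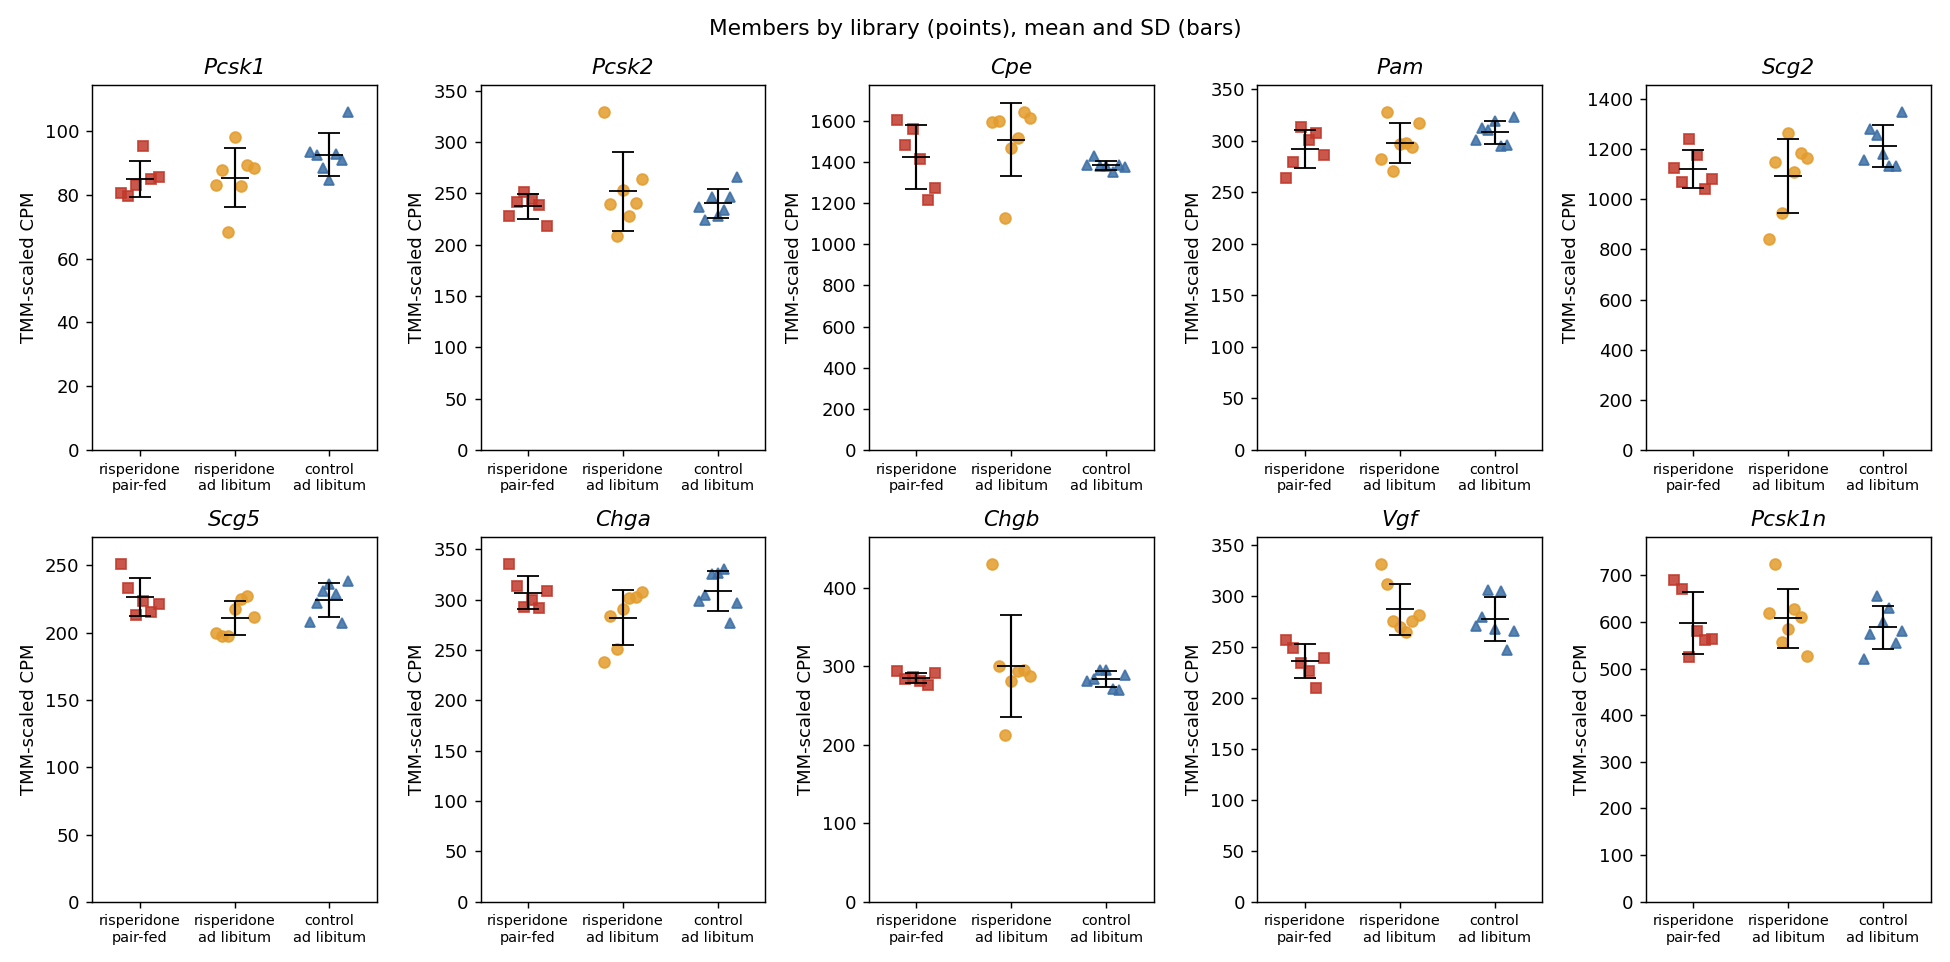
Level (CPM scaled with TMM) of each gene in every library, by group, with RISP_PF squares, RISP_Ad.lib circles and CON_Ad.lib triangles and bars for the mean and SD (n = 6, 7 and 7). Vgf alone has RISP_PF libraries (209.9 to 257.2 CPM) that all lie below the RISP_Ad.lib libraries (264.2 to 331.6 CPM), and Cpe has control libraries far closer together than those of the risperidone groups.

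Neither convertase gene passed the test. Pcsk1 (ENSMUSG00000021587, chr13:75089826-75134861, plus strand), whose product acts on precursors such as pro-opiomelanocortin, had a lowest, median and highest level of 79.5, 84.1 and 95.2 CPM in RISP_PF, 68.2, 87.7 and 98.1 CPM in RISP_Ad.lib and 84.7, 92.3 and 105.9 CPM in CON_Ad.lib. The groups overlapped, with 3 of 6 RISP_PF and 3 of 7 RISP_Ad.lib libraries below every control library. Its fold change was −0.13 (95% interval −0.26 to 0.01, adjusted p = 0.781, edgeR) in RISP_PF and −0.11 (−0.24 to 0.02, adjusted p = 0.441) in RISP_Ad.lib, both against CON_Ad.lib. Without RISP_Ad.lib libraries 1 and 3 the value in RISP_Ad.lib was −0.05. For the mean of both risperidone groups it was −0.12 (95% interval −0.23 to −0.01, unadjusted p = 0.0374, adjusted p = 0.59, edgeR).

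Pcsk2 (ENSMUSG00000027419, chr2:143546156-143816285, plus strand), whose product makes smaller peptides from many neuropeptide precursors, lay at 219 to 252 CPM in RISP_PF, 209 to 329 CPM in RISP_Ad.lib and 224 to 266 CPM in CON_Ad.lib. RISP_Ad.lib library 1 held the highest value. The fold change was −0.02 (95% interval −0.17 to 0.13) in RISP_PF and 0.07 (−0.08 to 0.22) in RISP_Ad.lib against control, and the value in RISP_Ad.lib was −0.01 without library 1 and 0.03 without libraries 1 and 3. Exons of Pcsk2 share 359 bases with antisense genes, and since the strand setting of the counting is not given, its counts are uncertain in that respect.

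Per length, Pcsk1 stood to Pcsk2 at 0.505 ± 0.0387 in RISP_PF (SD, n = 6), 0.484 ± 0.0635 in RISP_Ad.lib (SD, n = 7) and 0.544 ± 0.0275 in CON_Ad.lib (SD, n = 7). The log2 count ratio differed by −0.18 in RISP_Ad.lib against CON_Ad.lib (two-sided exact permutation test, p = 0.0204, adjusted p = 0.184 over 9 ratio tests) and by −0.11 in RISP_PF against CON_Ad.lib (exact p = 0.0536, adjusted p = 0.241). Neither passed the adjustment. RISP_Ad.lib library 1 had the lowest log2 ratio of Pcsk1 to Pcsk2 of all libraries, at −1.99, and without it the difference between RISP_Ad.lib and CON_Ad.lib was −0.11.

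Neither regulator of the convertases passed the test. Pcsk1n (ENSMUSG00000039278, chrX:7919822-7924410, plus strand) codes for proSAAS, an inhibitor of the Pcsk1 product, and ranged over 525 to 690 CPM in RISP_PF, 528 to 725 CPM in RISP_Ad.lib and 522 to 656 CPM in CON_Ad.lib. Its fold changes against control were 0.03 (95% interval −0.13 to 0.18) in RISP_PF and 0.05 (−0.10 to 0.19) in RISP_Ad.lib. Its exons share 135 bases with Eras on the opposite strand. Per length there was 18.2 ± 2.84 times as much Pcsk1n as Pcsk1 in RISP_PF, 18.3 ± 2.43 times in RISP_Ad.lib and 16.3 ± 1.90 times in CON_Ad.lib (SD, n = 6, 7 and 7), and none of the 3 comparisons of this ratio passed (adjusted p = 0.269, 0.301 and 0.876, exact permutation tests).

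Scg5 (ENSMUSG00000023236, chr2:113776362-113829121, minus strand) codes for a chaperone that the Pcsk2 product needs to mature. It lay at 213 to 251 CPM in RISP_PF, 197 to 227 CPM in RISP_Ad.lib and 207 to 238 CPM in CON_Ad.lib. Its fold change was 0.10 (95% interval −0.0019 to 0.20, adjusted p = 0.376, edgeR) in RISP_PF against RISP_Ad.lib, or 0.07 without RISP_Ad.lib libraries 1 and 3, with all 6 RISP_PF libraries above the RISP_Ad.lib mean but 4 of them within its range. Per length Scg5 stood to Pcsk2 at 4.82 ± 0.455 in RISP_PF, 4.30 ± 0.646 in RISP_Ad.lib and 4.72 ± 0.349 in CON_Ad.lib (SD, n = 6, 7 and 7), with adjusted p values of 0.269 to 0.741 over its 3 comparisons.

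Cpe stood out by the small spread of its control libraries rather than by its mean. The gene (ENSMUSG00000037852, chr8:64592542-64693054, minus strand) had a lowest, median and highest level of 1213, 1447 and 1602 CPM in RISP_PF, 1126, 1594 and 1642 CPM in RISP_Ad.lib and 1353, 1380 and 1429 CPM in CON_Ad.lib. The coefficient of variation was 10.9% in RISP_PF, 11.9% in RISP_Ad.lib and 1.67% in CON_Ad.lib, where the median over the genes tested was 8.72%, 13.7% and 8.03% in the same groups. Of the 7 RISP_Ad.lib libraries 6 lay above every control library, at 1468 to 1642 CPM, and library 3 lay below all of them. Of the 6 RISP_PF libraries 3 lay above and 2 below the control range.

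The fold change of Cpe in RISP_Ad.lib against CON_Ad.lib was 0.13 (SE 0.0726, 95% interval −0.02 to 0.28, adjusted p = 0.468, edgeR). Without RISP_Ad.lib library 3, the library with the most ribosomal RNA, it was 0.18 with an adjusted p of 0.152. It was 0.04 (95% interval −0.11 to 0.20) in RISP_PF against CON_Ad.lib.

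Pam (ENSMUSG00000026335, chr1:97795114-98095646, minus strand) had levels of 264 to 314 CPM in RISP_PF, 271 to 328 CPM in RISP_Ad.lib and 295 to 324 CPM in CON_Ad.lib, and its fold changes against control were −0.08 (95% interval −0.18 to 0.02) in RISP_PF and −0.05 (−0.14 to 0.05) in RISP_Ad.lib, the second of which was −0.01 without RISP_Ad.lib libraries 1 and 3. It shares 188 exonic bases with B230216N24Rik on the same strand.

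The chromogranins and Scg2 had overlapping groups in every comparison. Chga (ENSMUSG00000021194, chr12:102554969-102565028, plus strand), which codes for chromogranin A, had a lowest, median and highest level of 292, 304 and 336 CPM in RISP_PF, 238, 291 and 308 CPM in RISP_Ad.lib and 277, 304 and 331 CPM in CON_Ad.lib. All 7 RISP_Ad.lib libraries lay below the control mean, 2 of them below every control library. Its fold change there was −0.13 (95% interval −0.25 to −0.01, unadjusted p = 0.0358, adjusted p = 0.339, edgeR), and −0.06 without RISP_Ad.lib libraries 1 and 3. It was 0.12 (95% interval −0.0029 to 0.24, adjusted p = 0.379) in RISP_PF against RISP_Ad.lib, where it was 0.05 without those libraries, and −0.01 (−0.13 to 0.12) in RISP_PF against CON_Ad.lib.

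Chgb (ENSMUSG00000027350, chr2:132781278-132795079, plus strand), which codes for chromogranin B, was the steadiest of the 10 in RISP_PF. It ranged over 276 to 294 CPM in RISP_PF, 212 to 431 CPM in RISP_Ad.lib and 270 to 296 CPM in CON_Ad.lib. The coefficient of variation was 2.35%, 21.6% and 3.65% in these groups, and the extremes of RISP_Ad.lib were library 3 at the low end and library 1 at the high end. The fold change was 0.01 (95% interval −0.18 to 0.20) in RISP_PF and 0.08 (−0.10 to 0.27) in RISP_Ad.lib against control, and the value in RISP_Ad.lib was −0.02 without library 1 and 0.04 without libraries 1 and 3.

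Scg2 (ENSMUSG00000050711, chr1:79434669-79440120, minus strand), the precursor of secretoneurin, ranged over 1043 to 1241 CPM in RISP_PF, 843 to 1265 CPM in RISP_Ad.lib and 1133 to 1348 CPM in CON_Ad.lib. Of the 6 RISP_PF libraries 4 and of the 7 RISP_Ad.lib libraries 3 lay below every control library. The fold change was −0.11 (95% interval −0.27 to 0.05, adjusted p = 0.889, edgeR) in RISP_PF and −0.15 (−0.30 to 0.0045, adjusted p = 0.393) in RISP_Ad.lib against control. RISP_Ad.lib libraries 1 (843 CPM) and 3 (946 CPM) were among the 3 below every control, and without them the value in RISP_Ad.lib was −0.05. In RISP_PF against RISP_Ad.lib it was 0.04 and turned to −0.07 without RISP_Ad.lib libraries 1 and 3.

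**Figure D3:**
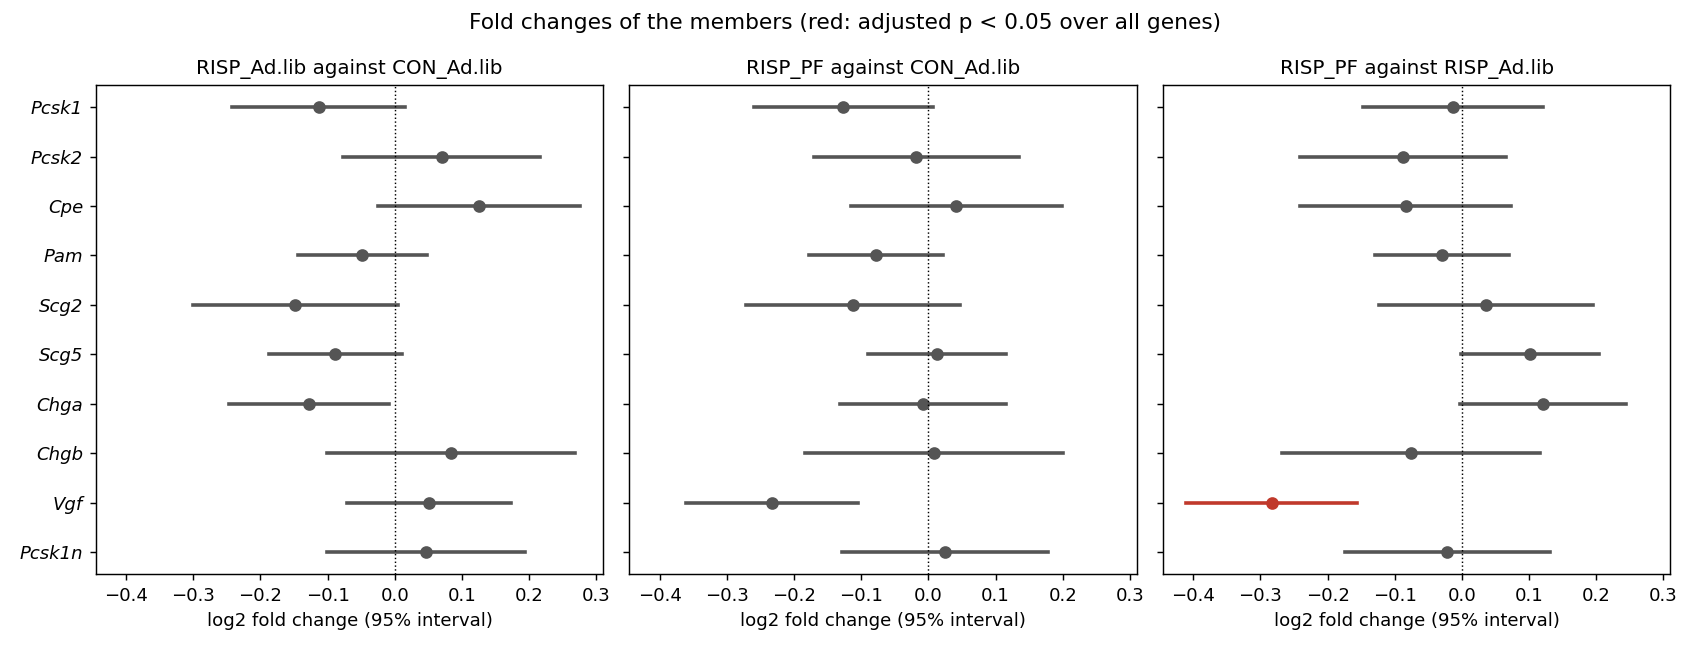
Fold change (log2, dots) and 95% interval (lines) of the 10 genes in the 3 comparisons, with the adjusted p taken over all genes tested. In RISP_PF against RISP_Ad.lib the interval of Vgf (−0.41 to −0.16) is marked as past the threshold. Vgf against control in RISP_PF (−0.36 to −0.11) and Chga in RISP_Ad.lib (−0.25 to −0.01) exclude 0 without passing the adjustment.

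Set against control, none of the 10 members passed with edgeR. In RISP_PF against CON_Ad.lib 0 were called, where 0.486% of all genes tested were, and 1 member (Vgf) had an unadjusted p under 0.05. DESeq2 and limma-voom each called 1 member there. In RISP_Ad.lib against CON_Ad.lib 0 were called, where 0.0615% of all genes were, and 1 member (Chga) had an unadjusted p under 0.05, with 0 called by DESeq2 and limma-voom. For the mean of both risperidone groups 0 were called, where 0.33% of all genes were, with Pcsk1 under an unadjusted 0.05 and 0 called by DESeq2 and limma-voom. Median fold changes of the 10 members were −0.01 in RISP_PF and −0.00087 in RISP_Ad.lib against control and −0.03 in RISP_PF against RISP_Ad.lib, beside 0.0026, 0.0077 and −0.0049 over all genes.

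Variation between libraries of one group was larger in RISP_Ad.lib than in the other groups for several members, and much of it lay in libraries 1 and 3. In library 3 the values of Pcsk1, Pcsk2, Cpe, Pam, Scg5 and Chgb were the lowest of their group. In library 1 those of Chgb, Pcsk2 and Vgf were the highest and those of Scg2 and Chga the lowest. Between members, deviations from the group means were compared over the 20 libraries for all 45 pairs. Scg5 and Chga varied together, with Pearson's r = 0.75 (permutation within groups, p = 0.00039, adjusted p = 0.0175) and Spearman's rho = 0.74 (p = 0.00075, adjusted p = 0.0338). Without the 2 libraries farthest from the median of Scg5, r was 0.69. Without RISP_Ad.lib libraries 1 and 3, r was 0.75 (adjusted p = 0.0481, permutation) and rho 0.68 (adjusted p = 0.185). No other pair passed in both measures, and the points share library preparation and depth.

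**Figure D4:**
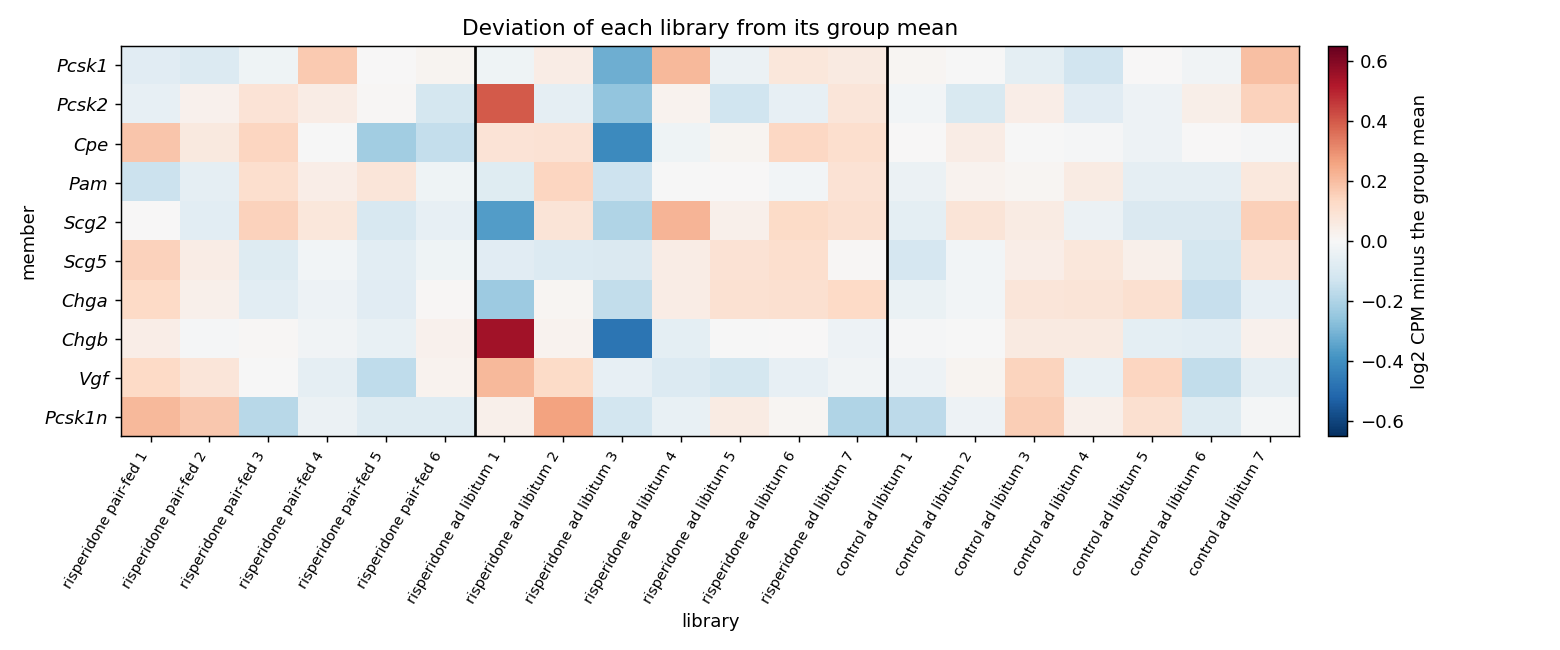
Deviation of each library (columns) from its group mean, as log2 CPM, for the 10 genes (rows), with the groups in the order RISP_PF, RISP_Ad.lib and CON_Ad.lib and red for values above the mean. RISP_Ad.lib libraries 1 and 3 hold the strongest colours, with Chgb high in library 1 (431 CPM) and low in library 3 (212 CPM).

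The genes whose deviations were most like the mean of the 10 members were Hspa8 (r = 0.94 over 20 libraries), Ran (0.92), Ywhaq (0.92), Cops4 (0.91), Necap1 (0.91), Vma21 (0.91), Gsto1 (0.91) and Lta4h (0.90), out of 10323 protein-coding genes of at least 10 CPM. RISP_Ad.lib library 3 is low in that mean, and without libraries 1 and 3 of its group the same 8 genes had r from 0.69 to 0.80 and ranked between 8 and 104. Each member is itself part of that mean, so that the r of a member is not comparable with those of the genes above. Of the members themselves, Cpe was closest to the mean with r = 0.82 over 20 libraries. Without those 2 libraries Cpe was at 0.57 and Scg2 closest at 0.65.

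Other genes of the same pathway were read from fixed lists. Of 11 further processing enzymes, such as furin, 0 passed the test in any of the 4 comparisons. Qpct, which forms the pyroglutamate end of some peptides, had the smallest p among them in RISP_PF against RISP_Ad.lib, at 0.22 (adjusted p = 0.226, edgeR), and in RISP_Ad.lib against CON_Ad.lib, at −0.22 (adjusted p = 0.231). Ctsl, a cathepsin that also cuts precursors in granules, was next at 0.18 and −0.17 in the same comparisons. In RISP_PF against CON_Ad.lib Qpct was at −0.0013 and Ctsl at 0.01.

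Of 23 genes of granule formation and release 0 passed in any comparison. An unadjusted p under 0.05 (edgeR) was found for 6 of the 23 in RISP_Ad.lib against CON_Ad.lib, beside 2345 of all 17893 genes. It was found for 3 in RISP_PF against RISP_Ad.lib and for 0 in RISP_PF against CON_Ad.lib, beside 2422 and 1191 of all genes. Nucb2, the precursor of nesfatin, was at 0.14 (adjusted p = 0.19, edgeR) in RISP_PF against RISP_Ad.lib and at −0.15 (adjusted p = 0.174) in RISP_Ad.lib against CON_Ad.lib. Syt7, a calcium sensor of exocytosis, was at 0.39 (adjusted p = 0.25) in RISP_Ad.lib against CON_Ad.lib. The RISP_Ad.lib library with the highest cortex and hippocampus markers enters this value of Syt7, and a value without that library is not given here. Of 8 peptide breakdown enzymes 0 passed, with Prcp, which inactivates a melanocortin peptide, at 0.19 (adjusted p = 0.562) in RISP_PF against CON_Ad.lib and at 0.23 (adjusted p = 0.217) in RISP_PF against RISP_Ad.lib. Of 4 genes that supply copper and reducing power to the Pam product 0 passed. Over all genes tested, 0.0615% to 0.486% were called in the 4 comparisons. At such low shares, 0 called in lists as short as these does not show that their genes were unchanged.

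Among 24 peptide precursors, the substrates of the pathway, 23 were tested and Penk, the enkephalin precursor, rose. Its fold change was 0.37 (adjusted p = 0.00571, edgeR) in RISP_PF and 0.39 (adjusted p = 0.0343) in RISP_Ad.lib against the shared controls, and −0.02 in RISP_PF against RISP_Ad.lib. The median of the precursors was −0.06 in RISP_PF and −0.13 in RISP_Ad.lib against control, with 14 and 16 of the 23 below 0. It was 0.11 in RISP_PF against RISP_Ad.lib, with 15 above 0. In RISP_Ad.lib against control 13 of the 23 had an unadjusted p under 0.05 (edgeR), as had 2345 of all 17893 genes. In RISP_PF against control 5 had one, beside 1191 of all genes.

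Of 11 genes of CREB signalling and neuronal activity, Fos and Fosb rose in RISP_PF against RISP_Ad.lib, by 1.35 (adjusted p = 2.32e-05, edgeR) and 0.91 (adjusted p = 0.004). Fos also rose in RISP_PF against CON_Ad.lib, by 0.67 (adjusted p = 0.029), and was at −0.68 (adjusted p = 0.0736) in RISP_Ad.lib against CON_Ad.lib. Fosb was at 0.33 and −0.58 in these comparisons, neither past the test. Over all genes tested, 0.397% were called in RISP_PF against RISP_Ad.lib. The list had a median of 0.17 in RISP_PF against RISP_Ad.lib, with 8 of the 11 above 0 and 3 below, the lowest at −0.29. The members with a TGACGTCA element in the windows searched had fold changes of −0.01 (Pcsk1), 0.04 (Scg2) and −0.08 (Chgb) in that comparison, and of −0.07, −0.07 and −0.03 in the same order without RISP_Ad.lib libraries 1 and 3. Those with only the shorter TGACG were at 0.12 (Chga), 0.10 (Scg5) and −0.09 (Pcsk2), and at 0.05, 0.07 and −0.05 without those libraries. Vgf, the member called in that comparison, had no window searched. A relation of these elements to Fos or Fosb was not tested.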

How the data were processed

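The authors deposited 1 table of raw counts, whole numbers of reads for each gene with no normalization, in 20 columns. STAR, featureCounts and DESeq2, with GRCm38 and mm10, are named per the submitters' processing notes, with versions, annotation release and strand setting not given in the sources used here. Reads were 150 bp paired-end, per the labels' protocols. Identifiers matched a GENCODE symbol on GRCm38 for 55144 of 55471 genes, and exon lengths for FPKM came from the same annotation.

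Counts were tested with the edgeR 4.0.16 quasi-likelihood test in R 4.3.3 (TMM scaling, filterByExpr with a minimum count of 10, 1 model over 20 libraries with 17 residual degrees of freedom, two-sided, Benjamini-Hochberg over 17893 genes, threshold 0.05). The script was tested on simulated data. Levels are TMM-scaled CPM, and logged values used a prior count of 2. Ratios within a library were compared with exact permutation tests, and correlations with 100000 permutations within groups. Alternatives were other scalings, filters, DESeq2 1.42.0, limma 3.58.1 (voom), other sample sets, a replicate block and each library left out. Shares of ribosomal RNA were taken from genes annotated as such. The alternative that left out ribosomal RNA genes also dropped Gm23935, Gm24270 and Lars2. The precision of each value is limited by 484 to 30678 counts per member and library.

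The members and lists were chosen with earlier results of these data known. All members were named; of each list, genes past the threshold (up to 4) or the pair with the smallest p, of which some are given; and the 8 genes most like the members' mean. Replicate numbers did not pair the libraries: same-numbered libraries had correlations of deviations of −0.16 to 0.30. No pair of libraries of a group agreed within sampling noise (lowest chi-square per degree of freedom 2.64 over 57 pairs).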

Additional observations from a re-analysis of the deposited data

Results flagged for a closer look

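Of 39 sets of values of a gene or ratio within a group, 6 held a library far from the others by Dixon's test, which chance gives in about 1 in 20. RISP_Ad.lib library 1 had the highest Chgb level of its group at 430.8 CPM, and the lowest log2 ratio of Scg5 to Pcsk2 at −0.72 and of Pcsk1 to Pcsk2 at −1.99. It is the library with the highest cortex and hippocampus markers. RISP_Ad.lib library 3, which has the most ribosomal RNA, had the lowest Cpe level at 1126 CPM. Among control libraries, library 7 had the highest Pcsk1 level at 105.9 CPM and library 2 the highest Cpe level at 1429 CPM, within a narrow group of 1353 to 1429 CPM. Control library 7 also had the highest sum of pituitary markers, at 47.6 CPM, and a relation of that sum to Pcsk1 was not tested.

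The change of Vgf against control differed between the risperidone groups in the reported fit. This is the same comparison of RISP_PF with RISP_Ad.lib as given above, and was called in 19 of 31 other settings. Neither change against control passed (adjusted p = 0.145 in RISP_PF and 0.762 in RISP_Ad.lib, edgeR). The difference between the risperidone groups, tested in the edgeR model with an adjusted p of 0.0403, was −0.28 on the log2 scale for RISP_PF against RISP_Ad.lib.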

How the results depend on the processing

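Of 1240 repeats of member fold changes (40 values under 31 other settings each), 1190 kept direction and side of the threshold, 33 changed sign, all of uncalled values, and Vgf lost its call in 12 and gained one in 5. Vgf in RISP_PF against RISP_Ad.lib was not called without a low-count filter (−0.27, adjusted p = 0.103), with only the groups compared (−0.29, 0.138) or with a replicate block (−0.29, 0.0676), where members called were 0, and left-out libraries gave −0.31 to −0.25 and 0 to 1 members called. In RISP_PF against CON_Ad.lib 1 member (Vgf) was called by DESeq2, by limma-voom, with only the groups compared and without RISP_Ad.lib libraries 1 and 3, and 0 to 1 with a library left out. Signs turned with the replicate block for Pcsk2 (0.0023) and Chga (0.00017) in RISP_PF against CON_Ad.lib and Pcsk1 (0.012) in RISP_PF against RISP_Ad.lib. Scg2 in RISP_PF against RISP_Ad.lib turned with limma-voom (−0.056) and without RISP_Ad.lib libraries 1 and 3 (−0.067), as did there the log2 ratios of Pcsk1n to Pcsk1 (0.034) and of Pcsk1 to Pcsk2 (−0.027).

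With 1 library left out, values that changed sign lay within these ranges. In RISP_PF against RISP_Ad.lib they were −0.057 to 0.023 for Pcsk1, −0.019 to 0.074 for Scg2, −0.14 to 0.032 for Chgb, −0.064 to 0.026 for Pcsk1n, −0.075 to 0.024 for the ratio of Pcsk1n to Pcsk1 and −0.00094 to 0.10 for that of Pcsk1 to Pcsk2. In RISP_PF against CON_Ad.lib they were −0.036 to 0.0079 for Pcsk2, −0.020 to 0.029 for Scg5, −0.035 to 0.0099 for Chga, −0.0030 to 0.019 for Chgb, −0.020 to 0.060 for Pcsk1n and −0.011 to 0.064 for the ratio of Scg5 to Pcsk2. In RISP_Ad.lib against CON_Ad.lib they were −0.0054 to 0.11 for Pcsk2, −0.023 to 0.15 for Chgb and −0.00055 to 0.078 for Pcsk1n. For the mean of both risperidone groups against CON_Ad.lib they were −0.012 to 0.052 for Pcsk2 and −0.0072 to 0.078 for Chgb.

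The number of all genes called moved more, from 65 to 250 (87 in the reported fit) in RISP_PF and 0 to 102 (11) in RISP_Ad.lib against CON_Ad.lib, 31 to 172 (71) in RISP_PF against RISP_Ad.lib and 18 to 193 (59) for the mean of both. The cause of these changes was not tested.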
